A study of Mus musculus with 8 samples.

Results

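The nuclear-encoded oxidative phosphorylation (OXPHOS) genes were examined in endothelial cells sorted from mouse lung tumors. Members were the symbols that matched the case-sensitive pattern ^(Nduf[abcsv]|Sdh[abcd]|Uqcr|Cox[4-8]|Atp5). Left out were 7 symbols that end in -ps (pseudogene) or -rs (related sequence), with or without a number. This gave 97 of the 33641 symbols in the files. By role, 45 belong to complex I, 8 to complex II, 8 to complex III, 20 to complex IV and 16 to complex V, with assembly factors counted under the complex they serve.

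Lewis Lung Carcinoma (LLC) cells, a mouse lung cancer line, were injected into the left lung of young adult C57Bl/6 mice, and CD45-CD31+ cells were collected by FACS from microdissected tumors on day 21. The 4 endFoxf1+/- libraries came from Pdgfb-iCreER/Foxf1 fl/+ mice, in which tamoxifen activates a Cre driven by the Pdgfb promoter and removes 1 Foxf1 allele in endothelium. The 4 control libraries are called only control in the labels. The study describes tamoxifen-treated mice for the LLC model and tamoxifen-treated controls for tumor-free lungs. Whether the sequenced controls received tamoxifen is not given. The study's figure of these RNA-seq values states a smaller number per group than the 4 libraries here. The study's methods name wild-type C57Bl/6 mice for the LLC model and single transgenic littermates elsewhere, either Foxf1 fl/+ or Pdgfb-Cre, so which of these were sequenced is not given. Control libraries are named C1 to C4 and endFoxf1+/- libraries H1 to H4. The labels do not tie a library to an animal, although the design text counts 4 mice a group, so p-values measure the spread between these libraries. Values are in TPM, a transcript level normalised for gene length and library total, and differences are on the log2(TPM + 1) scale.

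Complexes I to IV form the respiratory chain of the inner mitochondrial membrane. Complex I takes electrons from NADH and complex II from succinate, complex III passes them to cytochrome c, and complex IV hands them to oxygen. Complexes I, III and IV pump protons, and complex V, the ATP synthase, makes ATP as the protons flow back. Endothelial cells are known to draw most of their ATP from glycolysis, while their respiration supports proliferation through the supply of aspartate and nucleotides.

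Foxf1, the transcription factor targeted in this design, was at 213, 285, 296 and 331 TPM in C1 to C4 and at 177, 203, 14.04 and 105 TPM in H1 to H4. The groups did not overlap, which gives p = 0.0286 by exact permutation, two-sided, and no split of 4 against 4 libraries can give less. The deletion covers exon 1 alone by the study's account, so reads from the rest of the gene can still count. In H3 the geometric mean of 20 endothelial markers was 5.37% of the control mean, and the summed level of 12 myeloid markers was 9205 TPM, against 1470 to 5137 TPM in controls. In H4 the endothelial mean was 56.0%, and 1 symbol, Gm20594, held 21.8% of all TPM, against 5.11% to 11.3% in the other libraries. H1 and H2 were at 101% and 106% of the control endothelial mean. The summed level of 10 erythroid and platelet markers was 1044 to 2099 TPM in controls. In H1 to H4 it was 700, 698, 428 and 1006 TPM, without overlap. All 9 tested were below zero, and 5 had an unadjusted p under 0.05 by limma, against 2.77% of all genes called lower. Epithelial markers, 10 in all with 9 below zero and 0 with an unadjusted p under 0.05 by limma, summed to 6528 to 30843 TPM in controls and to 10341, 2444, 1564 and 23292 TPM in H1 to H4, so H2 and H3 lay below every control. The part of these other cells in the OXPHOS values was not tested. The main counts are therefore also given without H3 and H4. In sorted bulk cells fewer cells of a type and less RNA per cell cannot be told apart.

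OXPHOS genes were abundant in every library and held close levels between controls. Of the 97 members, 93 were above 0 in every library, 88 had a mean of at least 10 TPM and 58 a mean of at least 100 TPM. Together they made up 1.78% to 1.91% of all TPM in controls. The median SD between controls was 0.13 on the log2 scale for the 95 members tested, against 0.22 over all 14964 genes tested and 0.12 over 84 cytosolic ribosomal protein genes. Genes were tested where TPM reached 1 in at least 4 of the 8 libraries. The 2 members left out were both alternative complex IV subunits, Cox8c, listed at 0 in all 8 libraries, and Cox7b2, which reached at most 0.48 TPM.

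The promoters of 4 members are printed because these belong to abundant or called members and show the sequence features that some members shared. The windows are from RefSeq on GRCm38.p6, run 5′ to 3′ on the gene's strand and cover 250 bases before to 50 after the start. Capitals mark the core motifs of NRF1 (GCGCATGCG), ETS factors such as GABPA (CCGGAAG) and YY1 (AAGATGGCG), which are known regulators of nuclear OXPHOS genes, searched on both strands.
Cox6a1, chr5:115348909-115349208, minus strand: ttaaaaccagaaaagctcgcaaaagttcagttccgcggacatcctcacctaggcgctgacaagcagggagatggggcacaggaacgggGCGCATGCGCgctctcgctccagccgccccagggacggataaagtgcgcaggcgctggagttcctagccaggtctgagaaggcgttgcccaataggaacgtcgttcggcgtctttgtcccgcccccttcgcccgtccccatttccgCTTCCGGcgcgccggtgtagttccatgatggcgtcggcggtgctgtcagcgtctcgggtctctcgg
Uqcrh, chr4:116075021-116075320, minus strand: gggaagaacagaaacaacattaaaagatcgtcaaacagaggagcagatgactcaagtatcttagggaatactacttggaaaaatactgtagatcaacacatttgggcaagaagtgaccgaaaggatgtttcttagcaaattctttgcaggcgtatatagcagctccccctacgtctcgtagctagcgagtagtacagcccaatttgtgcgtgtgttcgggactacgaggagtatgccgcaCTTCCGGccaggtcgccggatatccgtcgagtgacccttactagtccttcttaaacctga
Ndufs7, chr10:80249199-80249498, plus strand: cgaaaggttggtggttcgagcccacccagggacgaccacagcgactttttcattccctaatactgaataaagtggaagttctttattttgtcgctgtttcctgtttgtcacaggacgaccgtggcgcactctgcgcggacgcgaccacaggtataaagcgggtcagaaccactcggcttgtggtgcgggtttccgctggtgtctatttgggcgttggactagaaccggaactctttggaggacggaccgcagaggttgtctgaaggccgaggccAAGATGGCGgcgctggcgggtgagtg
Ndufb4, chr16:37654319-37654618, minus strand, with no match: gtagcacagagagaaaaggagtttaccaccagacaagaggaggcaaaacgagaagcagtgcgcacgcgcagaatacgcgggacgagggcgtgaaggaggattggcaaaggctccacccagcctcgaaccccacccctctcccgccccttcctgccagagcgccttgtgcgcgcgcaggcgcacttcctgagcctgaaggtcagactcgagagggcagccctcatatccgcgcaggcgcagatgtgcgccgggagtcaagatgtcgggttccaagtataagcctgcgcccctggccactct

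In Cox6a1 the NRF1 core matched on both strands, at -162 and -161 from the start, so the 2 matches overlap in a palindrome, and an ETS core lay at -16. In Uqcrh the ETS core lay at -10, and in Ndufs7 the YY1 core lay at 25 bases after the start. Promoter windows were found for 81 members. The NRF1 core was present in 10 of the 81 (12.3%), against 1.95% of 27025 genes with a window. The ETS core was present in 21 (25.9%) against 9.93%, and the YY1 core in 9 (11.1%) against 1.64%. The hypoxia element core, ACGTG or GCGTG, was present in 55 (67.9%) against 46.7% of all genes. CCAAT, also searched, was present in 36 (44.4%) against 41.1%, and TATAAA in 8 (9.88%) against 15.7%. By complex, the YY1 core was in 7 of 40 complex I windows and 2 of 15 complex V windows. The ETS core was in 5 of 7 complex II windows. These matches are descriptions of letters in a window and not of binding.

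**Figure D1:**
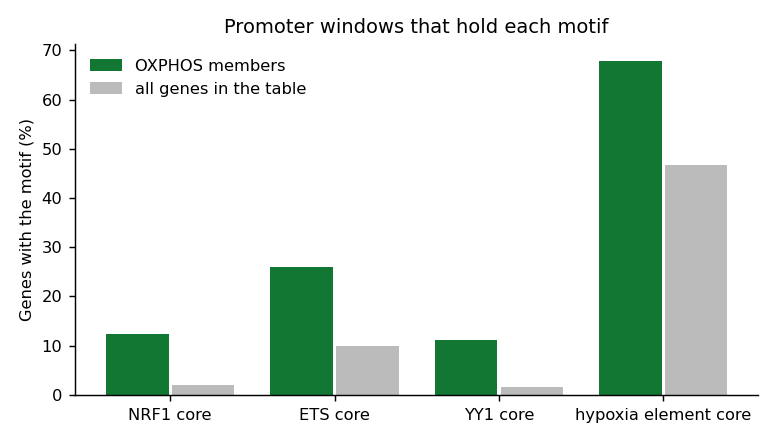
Bars show the percentage of genes whose promoter window holds each core motif, for 81 OXPHOS members (green) and 27025 genes in the table (grey). CCAAT and TATAAA, also searched, are not drawn. The NRF1 core is in 12.3% of members and 1.95% of all genes, the ETS core in 25.9% and 9.93%, and the YY1 core in 11.1% and 1.64%.

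The summed TPM of each complex lay near the control level in H1 and H2, and departed from it in H3 and H4 in different ways. All members together summed to 19070, 18575, 17792 and 19128 TPM in C1 to C4 and to 19267, 18485, 20049 and 11847 TPM in H1 to H4. H4 was thus the lowest library, at 63.6% of the control mean, and the other 3 endFoxf1+/- libraries lay between 99.2% and 108%. Complex I summed to 5304 ± 268 TPM in controls (SD, n = 4) and to 5473, 5224, 4578 and 3102 TPM in H1 to H4. Complex V summed to 5574 ± 192 TPM in controls and to 6048, 5523, 6882 and 3822 TPM in H1 to H4. H3 was therefore below every control for complex I and above every control for complex V.

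The small complex II, which is also the succinate dehydrogenase of the TCA cycle, summed to 460, 401, 393 and 419 TPM in C1 to C4 and to 469, 482, 333 and 264 TPM in H1 to H4. H1 and H2 were above all controls, and H3 and H4 below all of them. Complex III summed to 2250 ± 109 TPM in controls, with 1220 TPM in H4 and 2156 to 2365 TPM in the other 3 endFoxf1+/- libraries. Complex IV summed to 5096 ± 134 TPM in controls and to 5054, 5100, 5891 and 3440 TPM in H1 to H4. The ratio of complex I to complex V, which does not depend on the library total, was 0.921 to 0.978 in controls. It was 0.905 in H1, 0.946 in H2, 0.665 in H3 and 0.811 in H4, so 3 of the 4 endFoxf1+/- libraries lay below the controls and H2 within them.

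**Figure D2:**
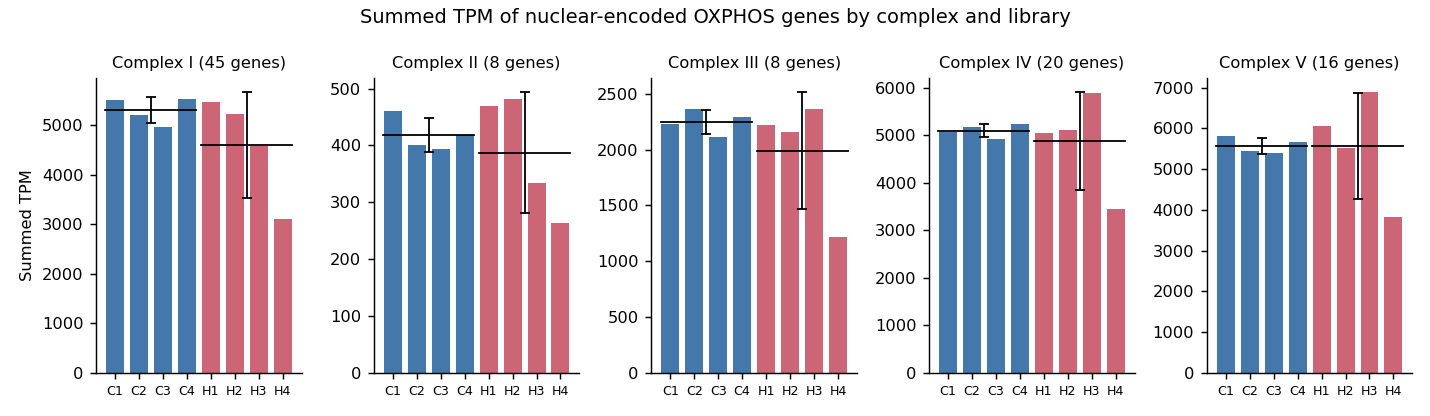
Bars give the summed TPM of each complex in each library (control C1 to C4 in blue, endFoxf1+/- H1 to H4 in red), and black lines and error bars give the group mean and SD (n = 4). H1 and H2 lie near the controls, H4 is lowest in all 5 complexes, and H3 is below the controls in complexes I and II and above them in complexes IV and V.

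Few members passed a test of the genotypes. By limma, 3 of the 95 members tested had an unadjusted p under 0.05, all 3 lower in endFoxf1+/-, namely Cox4i2, Ndufb4 and Ndufa4l2. Over all genes tested the share was 5.59%, with 2.77% lower and 2.82% higher. After Benjamini-Hochberg adjustment over all 14964 genes limma called 0 members, and 0% of all genes, where the smallest adjusted p was 0.305. The 4 values of one group lay wholly apart from those of the other for 8 members, 5 of them lower and 3 higher, against 5.04% of all genes (2.31% lower and 2.73% higher). The separations differed between scalings. Under median-ratio scaling 1 member was apart (0 lower, 1 higher, against 6.36% of all genes) and under quantile normalization 2 were (1 lower, 1 higher, against 6.19%), while rescaling without Gm20594 and the mitochondrially encoded genes gave 10 (7 lower, 3 higher, against 5.44% of all genes). With 1 library left out at a time, 1 member was called without C1, C2, C3 or C4 (against 2.85% to 3.68% of all genes), 6 without H1 (8.90%) and 5 without H2 (10.8%). The members apart numbered 15, 13 and 15 without H1, H3 or H4, against 8.47%, 9.10% and 9.36% of all genes, and 9, 9, 12, 8 and 12 without C1, C2, C3, C4 or H2, against 8.07%, 6.32%, 7.41%, 6.51% and 10.2%. Without H3 and H4, 10 members had an unadjusted p under 0.05, 5 lower and 5 higher, against 12.1% of all genes. On the same 6 libraries 25 members did not overlap, against 24.4% of all genes.

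The median log2 difference over the 95 members, endFoxf1+/- minus control, was -0.19, and over all genes tested it was -0.17. It was -0.19 for complex I, -0.23 for complex II, -0.18 for complex III, -0.09 for complex IV and -0.10 for complex V. In all, 71 members lay below zero and 24 above. This split moved with the scaling: dividing each library by its median ratio put the median of all genes at -0.01 and gave 45 members below zero and 50 above, and quantile normalization gave 50 below and 45 above, while rescaling without Gm20594 and the mitochondrially encoded genes gave 65 below and 30 above. Weighting the libraries by their estimated quality in limma gave 38 below and 57 above. Without H3 and H4 the median of members was 0.07 and that of all genes was 0.14. Relative to all genes, the members' median differed by -0.02 in all 8 libraries, by -0.21 without H3, by 0.12 without H4 and by -0.07 without both. With all 8 libraries it was 0.03 with a pseudocount of 0.1, 0.02 under median-ratio scaling and -0.11 without a filter on low TPM, so neither its sign nor its size was stable. Without H4 alone the members' median was -0.02, with 49 below zero and 46 above, and the medians of complexes I to V were -0.07, -0.07, 0.01, 0.06 and 0.15, so those of III, IV and V changed sign. Without H3 alone they were -0.22, -0.07, -0.15, -0.27 and -0.14. Without H1 or H2 the complex I median was -0.31, and without C3 or H2 the complex IV median was -0.18 and -0.20. The members' median was -0.28 without H1, with 75 below zero and 20 above, and -0.25 without H2. Without H1 the complex II median was -0.35, and without H2 that of complex III was -0.27.

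**Figure D3:**
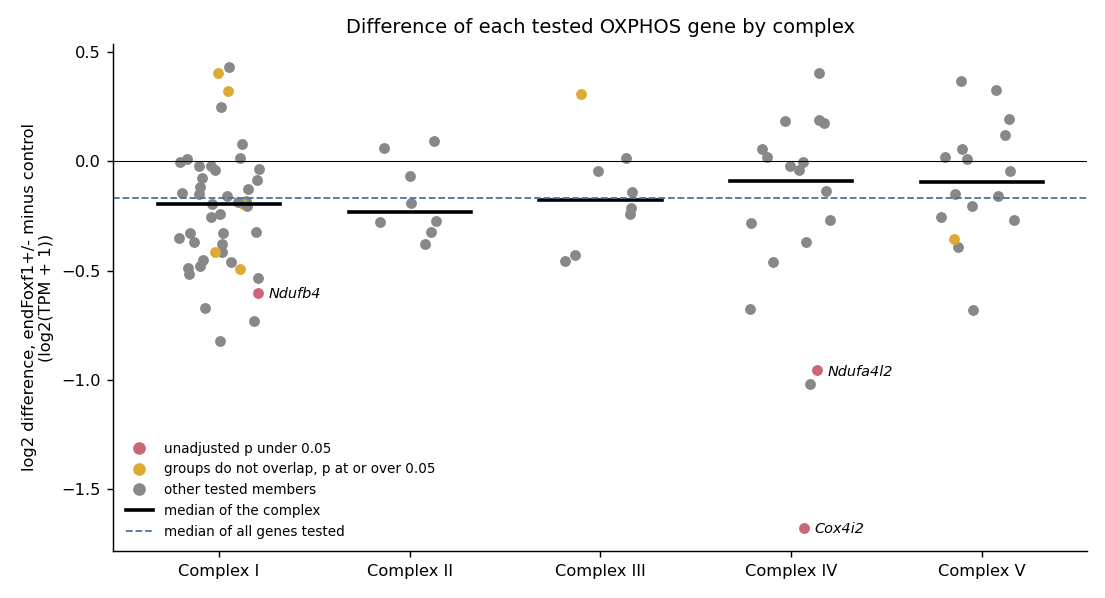
Each point is 1 of the 95 tested members, placed by complex, with its log2 difference, endFoxf1+/- minus control, on the vertical axis. Black bars are the medians of each complex, which lie between -0.23 and -0.09, near the median of all genes tested (dashed, -0.17), and the 3 red points are the members with an unadjusted p under 0.05.

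Complex I is the entry point of electrons from NADH, and its 7 nuclear-encoded core subunits carry the flavin and the iron-sulfur clusters. Their log2 differences lay between -0.46 and -0.13 with a median of -0.16, and 1 of the 7, Ndufs7, did not overlap between groups. Leaving out 1 library gave medians from -0.33 (without H1) to -0.11 (without C1). Without H3 and H4 the median was 0.10, with 3 below zero and 4 above, and under median-ratio scaling 3 were below and 4 above as well. Ndufs7, which holds the last cluster before ubiquinone, was at 195, 197, 201 and 194 TPM in controls and at 175, 173, 158 and 98.7 TPM in H1 to H4, each below every control (log2 difference -0.41, SE 0.24, limma adjusted p = 0.790). The Ndufs7 difference was -0.22 without H4, -0.18 without H3 and H4 and -0.22 under median-ratio scaling. Ndufv1, the NADH-binding subunit, was at 96.5 to 129 TPM in controls and at 93.8, 129, 59.4 and 63.6 TPM in H1 to H4. Ndufs1, the largest subunit, was at 40.7 to 64.6 TPM in controls and at 66.4, 60.1, 28.6 and 37.6 TPM in H1 to H4. In both genes the groups overlapped, with H3 and H4 below every control, and H1 also below in Ndufv1. The Ndufv1 difference of -0.46 became -0.31 without H3 and -0.05 without H3 and H4.

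Ndufs8, which carries a pair of iron-sulfur clusters, was within 91.1 to 111 TPM in 7 libraries and at 47.3 TPM in H4. Ndufs3 and Ndufv2 overlapped between groups as well, at 76.6 to 127 and 66.4 to 94.9 TPM in controls and 63.4 to 121 and 63.4 to 86.9 TPM in endFoxf1+/-.

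The 29 accessory subunits of complex I ran from 35.8 to 287 TPM in mean level. Their median log2 difference was -0.25, and 27 lay below zero, a number that became 16 under median-ratio scaling and 14 without H3 and H4. With 1 library left out the median ran from -0.35 (without H1) to -0.07 (without H4, with 19 below zero and 10 above). Ndufb4, a membrane-arm subunit, had the only unadjusted p under 0.05 among the 45 complex I members. It was at 68.6, 81.7, 85.3 and 75.4 TPM in C1 to C4 and at 61.5, 64.5, 51.1 and 32.5 TPM in H1 to H4, so every endFoxf1+/- library was below every control. The log2 difference was -0.60 (SE 0.25, 95% interval -1.17 to -0.03, limma unadjusted p = 0.0398 and adjusted p = 0.790). Without C1, C2, C3, C4 or H4 it was -0.66, -0.58, -0.56, -0.61 and -0.39, and the limma unadjusted p-values were 0.0525, 0.0898, 0.0959, 0.0743 and 0.0721. Under median-ratio scaling it was -0.41, under quantile normalization -0.44 and without a variance trend -0.60, with limma unadjusted p-values of 0.157, 0.119 and 0.0506. It was -0.29 without H3 and H4 (limma unadjusted p = 0.0488). Ndufb4 lies on chr16:37647170-37654453 in GRCm38, minus strand.

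Other accessory subunits kept apart by group without passing that test. Ndufb11, on the X chromosome, was at 171 to 181 TPM in controls and at 162, 158, 132 and 71.1 TPM in H1 to H4, and its exons overlap those of Rbm10. The Ndufb11 log2 difference of -0.49 became -0.22 without H4 and -0.13 without H3 and H4. Ndufb10 was at 144 to 153 TPM in controls and at 144, 140, 120 and 121 TPM in H1 to H4, where H1 missed the lowest control by less than 0.1 TPM. Under median-ratio scaling the Ndufb10 difference turned from -0.19 to 0.00. Ndufa10, a matrix-side subunit, went the other way, with 63.5 to 78.4 TPM in controls and 81.9, 84.6, 86.3 and 132 TPM in H1 to H4 (log2 difference 0.40, SE 0.22, limma adjusted p = 0.790). Without H4, the highest, the Ndufa10 difference was 0.24. The most abundant accessory subunit, Ndufa7, was at 274 to 320 TPM in controls and at 278, 319, 351 and 137 TPM in H1 to H4. The least abundant, Ndufa11, was at 36.0 to 45.5 TPM in controls and at 22.4 to 39.0 TPM in endFoxf1+/-.

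Of the 9 complex I assembly factors, 5 had log2 differences above zero and 4 below. Ndufaf7, a methyltransferase needed for complex I assembly, was at 13.02, 10.6, 13.5 and 12.9 TPM in controls and at 16.3, 15.3, 14.98 and 16.7 TPM in H1 to H4, without overlap (log2 difference 0.32, SE 0.21, limma adjusted p = 0.790). Ndufaf6 had the largest positive log2 difference, 0.43, and overlapped, with 10.3 to 22.3 TPM in controls and 25.3, 24.3, 9.79 and 22.2 TPM in H1 to H4. H3 alone lay below the controls, and without it the difference was 0.73 (limma unadjusted p = 0.0267). The lowest log2 difference among the factors was that of Ndufaf3, -0.82, with 59.8 to 66.4 TPM in controls, 63.8 and 68.6 TPM in H1 and H2, and 16.2 and 20.6 TPM in H3 and H4. The Ndufaf3 difference was -0.47 without H3, -0.57 without H4 and 0.08 without both.

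Complex II has 4 subunits, all encoded in the nucleus. None of them, nor any of its 4 assembly factors, had an unadjusted p under 0.05 or groups apart. Sdha, the flavoprotein, was at 106 to 137 TPM in controls, at 140 and 152 TPM in H1 and H2 and at 54.5 and 56.3 TPM in H3 and H4. Sdhb, the iron-sulfur subunit and the most abundant of the 4, was at 108 to 144 TPM in controls and at 131, 131, 105 and 60.9 TPM in H1 to H4. The membrane anchors differed less between libraries, with Sdhc at 37.6 to 40.6 TPM in controls and 34.5 to 45.9 TPM in endFoxf1+/-, and Sdhd at 75.8 to 83.7 and 61.5 to 102 TPM. Without H3 and H4 all 8 complex II members lay above zero, with a median of 0.16, next to 0.14 for all genes.

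Complex III passes electrons from ubiquinol to cytochrome c. Uqcrfs1, the Rieske iron-sulfur protein, was at 31.7, 32.3, 30.4 and 36.9 TPM in controls and at 37.9, 38.3, 38.7 and 49.0 TPM in H1 to H4. Every endFoxf1+/- library was above every control (log2 difference 0.31, SE 0.20, limma adjusted p = 0.790; exact permutation p = 0.0286). The other 7 members overlapped. Uqcrh, the hinge protein and the most abundant, was at 443 to 539 TPM in controls and at 476, 465, 704 and 409 TPM in H1 to H4. The large matrix-side proteins Uqcrc1 and Uqcrc2 were at 56.2 to 64.8 and 74.4 to 90.0 TPM in controls and at 47.4 to 71.5 and 54.8 to 91.7 TPM in endFoxf1+/-.

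Complex IV, cytochrome c oxidase, combines ubiquitous subunits with forms that replace them in some tissues. The 10 ubiquitous nuclear-encoded subunits had a median log2 difference of -0.03, with 6 below zero and 4 above, and none was called by either count. Cox6a1, the most abundant, was at 1033 to 1196 TPM in controls and at 1059, 1232, 881 and 673 TPM in H1 to H4. Cox4i1, the main form of the subunit that regulates the enzyme, was at 506.6, 453, 488 and 458 TPM in controls and at 527, 552, 843 and 337 TPM in H1 to H4. The ubiquitous subunits moved unequally in H4, where Cox6b1 was at 491 TPM, above the controls at 303 to 389 TPM, and Cox5b was at 105 TPM, below the controls at 248 to 390 TPM.

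Cox4i2, the alternative form of subunit 4 that is known from lung and from pericytes and for its part in oxygen sensing, had the lowest log2 difference of all members. It was at 9.96, 17.7, 27.6 and 19.8 TPM in C1 to C4 and at 12.0, 9.33, 2.06 and 1.84 TPM in H1 to H4. H2, H3 and H4 lay below every control and H1 above C1. The log2 difference was -1.68 (SE 0.55, 95% interval -2.91 to -0.44, limma unadjusted p = 0.0133 and adjusted p = 0.790; exact permutation p = 0.0571). It was -0.69 without H3 and H4 (limma unadjusted p = 0.0822). Cox4i2 lies on chr2:152754173-152765037 in GRCm38, plus strand, and its exons overlap those of no other gene in GENCODE vM21.

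Within a library, Cox4i2 was 1.93%, 3.75%, 5.35% and 4.14% of the summed Cox4i1 and Cox4i2 TPM in C1 to C4 and 2.23%, 1.66%, 0.244% and 0.543% in H1 to H4. The log2 ratio of the 2 forms was -4.67 ± 0.61 in controls and -6.52 ± 1.25 in endFoxf1+/- (SD, n = 4 each; exact permutation p = 0.0571, adjusted over 8 isoform pairs p = 0.229). The difference of -1.85 became -0.87 without H3 and H4.

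Ndufa4l2 is a paralog of the complex IV subunit Ndufa4, known as a target of hypoxia-inducible factor and as a pericyte gene. It was at 5.46, 8.88, 4.98 and 7.59 TPM in controls and at 4.99, 2.57, 0.823 and 4.96 TPM in H1 to H4. H1 exceeded C3 by less than 0.01 TPM, so the groups touched. The log2 difference was -0.95 (SE 0.41, limma unadjusted p = 0.0447 and adjusted p = 0.790). Without C1, C2, C3, C4, H2 or H3 it was -1.03, -0.83, -1.07, -0.89, -0.91 and -0.59. The limma unadjusted p-values were 0.0604, 0.114, 0.0509, 0.0966, 0.0845 and 0.0738. Ndufa4l2 also lost its p under 0.05 with a pseudocount of 0.1 and without a filter on low TPM. The same held when rescaled without Gm20594 and the mitochondrially encoded genes. Its gene, chr10:127514967-127517154 on the plus strand, overlaps exons of Shmt2, and reads of the 2 genes could be assigned to either. Ndufa4 itself was at 340 to 467 TPM in controls and at 380, 315, 262 and 123 TPM in H1 to H4, and the ratio of Ndufa4l2 to Ndufa4 differed by -0.28 on the log2 scale (exact permutation p = 0.743).

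Values of mural-cell genes are given beside these 2 members. Rgs5, a pericyte marker, was at 18.9, 17.9, 15.1 and 10.7 TPM in controls and at 3.71, 3.73, 0.602 and 6.66 TPM in H1 to H4, without overlap (log2 difference -2.004, SE 0.46, limma unadjusted p = 0.00154 and adjusted p = 0.790). Higd1b, a pericyte gene picked after its values were seen, was at 17.0, 25.8, 27.9 and 27.1 TPM in controls and at 18.9, 12.6, 1.49 and 0.786 TPM in H1 to H4. It shared with Cox4i2 the low values in H3 and H4 and the overlap of H1 with C1. Pdgfrb, Cspg4 and Acta2 overlapped between groups, Pdgfrb in H3 lay within the controls at 5.95 TPM, Acta2 had a log2 difference of 0.15, and Kcnj8 was under 1 TPM in 6 libraries. All 11 fibroblast and pericyte markers were above 0 in every library. Their summed level was 74.2 to 146 TPM in controls and 128 to 1346 TPM in endFoxf1+/-, highest in H3. Rgs5, Pdgfrb, Cspg4, Acta2 and Kcnj8 were at 0.602, 5.95, 0.666, 27.1 and 0.734 TPM in H3. Most of the H3 sum therefore came from the fibroblast markers. Of the 10 tested, 7 had log2 differences above zero, namely Acta2 and the fibroblast markers. The 3 below were Rgs5, Pdgfrb and Cspg4, at -2.004, -0.39 and -0.50. Of the 10, 5 had an unadjusted p under 0.05 by limma, against 5.59% of all genes. The part of mural cells in the Cox4i2 and Ndufa4l2 values was not tested.

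**Figure D4:**
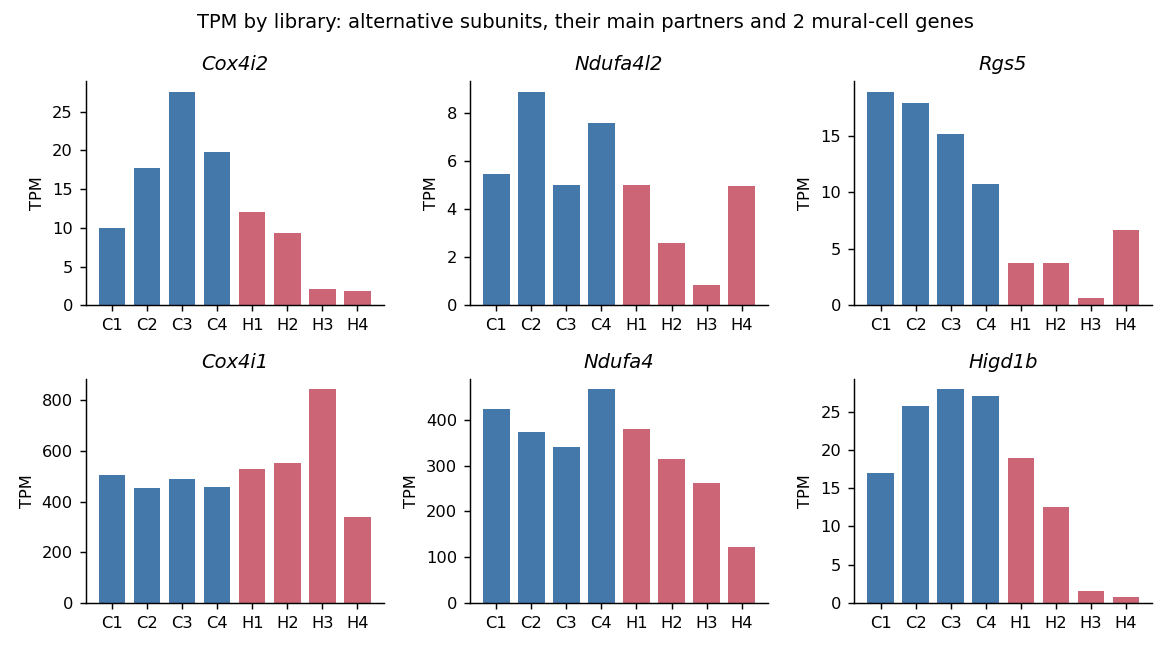
Bars give TPM in each library (control in blue, endFoxf1+/- in red) for Cox4i2 and Ndufa4l2, their main partners Cox4i1 and Ndufa4, and the mural-cell genes Rgs5 and Higd1b. Cox4i2 and Higd1b are lowest in H3 and H4, at 1.84 to 2.06 and 0.786 to 1.49 TPM, while Cox4i1 is highest in H3 at 843 TPM.

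The muscle-type complex IV subunits were low in these cells. Cox6a2 was at 8.53, 6.58, 28.7 and 10.5 TPM in controls and at 5.43, 3.79, 2.10 and 14.4 TPM in H1 to H4, and overlapped between groups (log2 difference -1.02, SE 0.56, limma adjusted p = 0.790). Without C3 the difference was -0.60, without H4 it was -1.46 (limma unadjusted p = 0.0195), and without H3 and H4 it was -1.18 (limma unadjusted p = 0.0470). Exons of Cox6a2 overlap those of Itgad, an integrin gene of leukocytes. Cox7a1 was at 3.54 to 6.42 TPM in controls and at 0 to 7.66 TPM in endFoxf1+/-, and Cox8b at 0 to 3.30 and 0.866 to 3.05 TPM. The testis-type Cox6b2 was at 1.23 to 5.70 TPM in controls and at 3.03, 1.43, 5.66 and 13.5 TPM in H1 to H4. Its log2 difference of 0.40 turned to -0.06 without H4. The summed level of 14 cardiac and skeletal muscle markers was 9.99 to 17.3 TPM in controls and 7.51 to 17.2 TPM in endFoxf1+/-, with Myh4 at 0 throughout. None of the 8 isoform ratios had an adjusted p under 0.05, and the lowest adjusted p was 0.229.

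Complex V makes the ATP. Of its 16 members, 9 had log2 differences below zero and 7 above, and 0 had an unadjusted p under 0.05 by limma. Atp5b, the catalytic beta subunit and the most abundant member of all, was at 1352, 1140, 1108 and 1276 TPM in controls and at 1380, 1221, 1506 and 1194 TPM in H1 to H4 (log2 difference 0.12, 95% interval -0.47 to 0.71). In contrast to most members, it stayed within the control range in H4. Atp5a1, the alpha subunit, likewise lay at 171 to 196 TPM in controls and at 222, 200, 252 and 173 TPM in H1 to H4.

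The c-ring, which turns with the proton flow, is built from 1 mature protein made by 3 genes. Atp5g3 was at 407, 307, 344 and 341 TPM in controls and at 415, 322, 462 and 112 TPM in H1 to H4. Atp5g1 was at 239, 241, 244 and 275 TPM in controls and at 303, 290, 543 and 201 TPM in H1 to H4, and Atp5g2 at 219 to 249 TPM in controls and at 284, 272, 600 and 178 TPM. Both were above every control in H1, H2 and H3 and below every control in H4. Atp5g3 held 38.5% to 47.0% of the summed TPM of the 3 genes in controls and 41.4%, 36.5%, 28.8% and 22.8% in H1 to H4. The log2 ratio of Atp5g1 to Atp5g3 was 0.60 higher in endFoxf1+/- and that of Atp5g2 to Atp5g3 was 0.64 higher (exact permutation p = 0.0857 for each, adjusted p = 0.229). Without H3 and H4 both differences were 0.18.

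Among stalk and membrane subunits, Atp5k was at 237 to 267 TPM in controls and at 204, 201, 251 and 54.0 TPM in H1 to H4, and Atp5f1, the least abundant, at 108 to 124 TPM in controls and at 146, 135, 119 and 90.3 TPM. Atp5s, known as factor B and not a subunit of the core enzyme, was at 5.84, 6.27, 6.26 and 5.59 TPM in controls and at 4.94, 4.88, 4.72 and 3.43 TPM in H1 to H4. Its groups did not overlap (log2 difference -0.36, SE 0.23, limma adjusted p = 0.790).

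Viewed 1 library at a time, most members lay below the controls in H4, and they lay on both sides of them in the other endFoxf1+/- libraries. In H1, 38 of the 95 members tested were above every control and 14 below, where 5352 and 1551 of all 14964 genes were. In H2, 24 were above and 24 below, where 5220 and 1864 of all genes were. In H4, 76 of the 95 members tested were below every control and 8 above, where 7390 and 3625 of all 14964 genes were. In H3, 48 were below and 29 above, where 10203 and 2517 of all genes were. The median deviation from the control mean in H3 was -0.32 for complex I, -0.50 for complex II, 0.00 for complex III, 0.14 for complex IV and 0.22 for complex V, and -0.71 for all genes. In H4 it was -0.79, -0.41, -0.55, -0.52 and -0.67 in the same order, and -0.25 for all genes. In H1 and H2 the median over all members was 0.09 and 0.00, and that over all genes was 0.15 and 0.13.

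**Figure D5:**
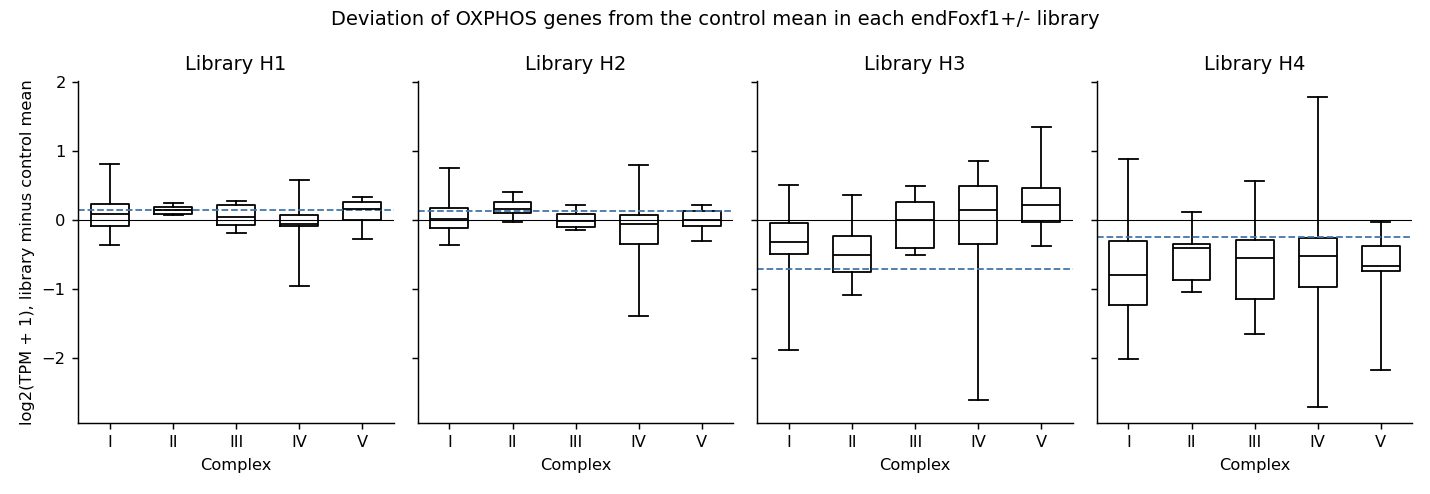
Boxes give the log2(TPM + 1) of each tested member in 1 endFoxf1+/- library minus its control mean, by complex (line, median; box, quartiles; whiskers, lowest and highest member), and the dashed line is the median of all genes tested. Medians stay within -0.06 to 0.16 in H1 and H2, run from -0.50 to 0.22 across complexes in H3, and lie between -0.79 and -0.41 in H4.

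The 13 mitochondrially encoded subunits, the partners of complexes I, III, IV and V, did not follow the nuclear-encoded ones across libraries. They summed to 39071, 72803, 71199 and 64086 TPM in C1 to C4 and to 47568, 51959, 39054 and 84819 TPM in H1 to H4, so C1 and H3 were the lowest and H4 the highest. The ratio of mitochondrially to nuclear-encoded TPM was 2.05, 3.92, 4.00 and 3.35 in controls and 2.47, 2.81, 1.95 and 7.16 in H1 to H4. Of the 13 genes, 12 had log2 differences below zero (median -0.29), 10 under median-ratio scaling and all 13 without H3 and H4. The median was -0.09 under median-ratio scaling, -0.13 without H3, -0.47 without C1, -0.45 without H4 and -0.32 without H3 and H4. By limma 0 of the 13 had an unadjusted p under 0.05.

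Among 27 tested genes of electron carriers and ATP export, 1 (3.70%) had an unadjusted p under 0.05, against 5.59% of all genes. It was Coq8a, a kinase-like protein of ubiquinone synthesis, at 2.65 to 7.19 TPM in controls and at 2.50, 3.71, 1.13 and 1.87 TPM in H1 to H4 (log2 difference -0.84, limma unadjusted p = 0.0377 and adjusted p = 0.790). Among 38 tested assembly factors outside the symbol pattern, 2 (5.26%) did, both higher, against 5.59% of all genes (2.82% higher). Sco2, which delivers copper to complex IV, was at 6.08, 2.74, 2.79 and 5.56 TPM in controls and at 8.46, 7.47, 6.90 and 10.3 TPM in H1 to H4, without overlap (log2 difference 0.86, limma unadjusted p = 0.0192). Atpaf2, an assembly factor of F1, was at 9.22 to 13.7 TPM in controls and at 17.5, 18.6, 13.5 and 36.3 TPM in H1 to H4 (log2 difference 0.72, limma unadjusted p = 0.0466). The limma adjusted p was 0.790 for both. The unadjusted p under 0.05 was lost for Coq8a without C1, C2, C3, H1, H3 or H4 (limma unadjusted p-values 0.0543 to 0.112), for Sco2 without C2 or C3 (0.0665 and 0.0644) and for Atpaf2 without any 1 library other than H3 (0.0581 to 0.123). The Atpaf2 difference was 0.45 without H4.

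Of 22 TCA cycle genes and 21 tested genes of mitochondrial biogenesis and DNA upkeep, limma gave none an unadjusted p under 0.05, and their median log2 differences were 0.01 and -0.16. The TCA median, with 10 below zero and 12 above, became 0.21 under median-ratio scaling, with 5 below and 17 above. It was 0.12 without H3 and H4, and -0.09 without H1, with 13 below and 9 above. Leaving out C2, C3, C4 or H2 gave -0.02, -0.03, -0.03 and -0.06. The biogenesis median became 0.01 under median-ratio scaling and 0.16 without H3 and H4. It was -0.32 without H1, -0.24 without H2 and 0.12 without H3. Nrf1, whose motif was searched above, was at 27.0 to 30.4 TPM in controls and at 34.3, 37.2, 15.5 and 17.1 TPM in H1 to H4. Gabpa was at 34.2 to 43.3 TPM in controls and at 37.5 to 45.4 TPM in endFoxf1+/-. Of 78 mitochondrial ribosomal protein genes 2 (2.56%) had an unadjusted p under 0.05, 1 in each direction, against 5.59% of all genes.

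Glycolysis genes, the other source of ATP, had a higher median difference than OXPHOS genes. Of 17 tested, 3 (17.6%) had an unadjusted p under 0.05 and 4 (23.5%) groups apart, all higher. Over all genes 2.82% were called higher and 2.73% were apart and higher. The median log2 difference was 0.63. Without H3 the median was 0.24, and without H3 and H4 it was 0.18, next to 0.14 for all genes. Hk2, hexokinase 2, was at 7.32 to 11.5 TPM in controls and at 12.4, 12.1, 33.9 and 28.2 TPM in H1 to H4 (log2 difference 1.03, limma unadjusted p = 0.0190). Eno1, an enolase, was at 93.7 to 121 TPM in controls and at 153, 148, 695 and 194 TPM, and Slc2a1, the glucose transporter, at 17.7 to 23.3 TPM in controls and at 26.4, 23.8, 122 and 53.4 TPM, with limma unadjusted p-values of 0.0295 and 0.0351. Without H3 the differences of Hk2, Eno1 and Slc2a1 were 0.78, 0.66 and 0.68, and without H3 and H4 they were 0.40, 0.54 and 0.32, where the limma unadjusted p-values were 0.0736, 0.00379 and 0.0729. A limma unadjusted p under 0.05 was lost for Hk2 without C2 or H4, for Eno1 without C2, C3 or C4 and for Slc2a1 without C1, C3, C4 or H4. Median-ratio scaling gave limma unadjusted p-values of 0.0623 for Eno1 and 0.0706 for Slc2a1. For Slc2a1 this p was 0.0641 by quantile normalization and 0.0508 with array weights. The adjusted p of all 3 was 0.790, and the largest values stood in H3, the library with the fewest endothelial transcripts. The difference between the glycolysis and the OXPHOS genes was not tested. The summed TPM of 90 cytosolic ribosomal protein genes was 100994 to 112743 in controls and 108112, 112594, 303415 and 68092 in H1 to H4, so H3 stood apart there too.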

How the data were processed

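RNA-seq libraries of sorted CD45-CD31+ endothelial cells (total RNA, Nextera XT) were compared, 4 control and 4 endFoxf1+/-. The authors deposited 1 table of TPM per library, with symbols only, and every library has the same total. The submitters' processing notes name TopHat, Cufflinks and Subread and the build GRCm38 (mm10); which tool gave the TPM, and whether strand was used, is not given in the sources used here. Read numbers cannot be read from TPM. The depth of each library is therefore unknown, and no counting interval or floor was computed. TPM also share a fixed total, so a symbol that takes a large share lowers the rest.

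TPM were used as deposited, as log2(TPM + 1), for the 14964 genes at 1 TPM or more in at least 4 libraries. They were fitted with limma 3.58.1 in R 4.3.3 (lmFit, eBayes with trend), with Benjamini-Hochberg adjustment over all genes and a threshold of 0.05. The procedure was tested on simulated data. Single genes and ratios of isoforms, log2((TPM + 1)/(TPM + 1)), were compared by exact two-sided permutation over all 70 assignments (scipy 1.17.1), with adjustment over 8 pairs. Lists are described by counts and medians without a test.

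Named genes were, in each complex, the subunits with the highest and lowest mean, the core subunits (1 of which is not reported here), the isoform pairs, members with an unadjusted p under 0.05 or groups apart (up to 15), and the 3 largest differences in each direction; of the companion lists, up to 3 genes with an unadjusted p under 0.05. Other genes named (Ndufaf3, Cox6b1, Cox5b, Atp5k, Nrf1, Gabpa, Higd1b) were chosen after their values were seen. Members and lists were chosen with earlier results of these data known. Coordinates are from GENCODE vM21 on GRCm38, where all 97 members were found (older symbols through RefSeq synonyms) and 35 share exon bases with another gene. Promoters are from RefSeq. Alternatives were the pseudocount, the filter, scaling, variance trend, library weights and leaving out libraries.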

Additional observations from a re-analysis of the deposited data

Results flagged for a closer look

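In groups of 4 libraries, a library was picked out where its gap to the nearest other, divided by the range of the group, exceeded Dixon's critical value. This was done for 61 values of the text in both groups, 122 groups in all, and 9 were picked out. Chance picks out about 1 in 20 groups.

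H4 accounted for 5 of them. Ndufa10 was at 132 TPM in H4 against 81.9 to 86.3 TPM in the other endFoxf1+/- libraries, and Uqcrfs1 at 49.0 TPM against 37.9 to 38.7 TPM. Ndufs8 was at 47.3 TPM against 104 to 111 TPM, and Atp5s at 3.43 TPM against 4.72 to 4.94 TPM. The summed TPM of 78 mitochondrial ribosomal protein genes was 3303 in H4 against 4705 to 4890. H4 is the library in which Gm20594 held 21.8% of all TPM.

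Glycolysis genes summed to 7451 TPM in H3 against 2702 to 3134 TPM in the other endFoxf1+/- libraries. Cox8b was at 3.05 TPM in H2 against 0.866 to 1.06 TPM. Among controls, Atp5g1 was at 275 TPM in C4 against 239 to 244 TPM, and Uqcrc2 at 90.0 TPM in C1 against 74.4 to 76.3 TPM.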

How the results depend on the processing

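The depth is unknown and 4 libraries a group limit precision. No paired analysis was possible because the labels tie no control library to an endFoxf1+/- library. The numbers in C1 to C4 and H1 to H4 follow the order of the samples within a group. Of 322 alternatives for 18 single genes, 284 kept their direction and side of the threshold, and of 102 for medians, 99 stayed within the spread between libraries. Where results moved, the cause was not tested. A minimum of 5 TPM left no value for Ndufa4l2 and Cox6b2.

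The count of members with an unadjusted p under 0.05 (3) became 11 with array weights, which weighted H3 and H4 at 0.0643 and 0.178 (5 lower, 6 higher, against 19.2% of all genes), 10 without H3 and H4, and 1 to 6 when 1 library was left out (1 without C1, C2, C3 or C4, 6 without H1, 5 without H2). The count without overlap (8) became 2 by quantile normalization (1 lower, against 6.19% of all genes), 1 by median-ratio scaling (0 lower, 6.36%), 25 without H3 and H4 (24.4%), and 8 to 15 when 1 library was left out (15 without H1 or H4, 13 without H3). The median of members (-0.19) became 0.0657 without H3 and H4, -0.02 without H4 and -0.28 without H1. That of complex II (-0.23) became 0.146 with array weights and 0.164 without H3 and H4.

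Log2 differences that had not passed a test turned sign. Ndufb10 became 0.0027 by median-ratio scaling. With array weights Sdhb became 0.0795, Uqcrh -0.0860 and Cox6b2 -0.169. Without H3 and H4 Sdhb became 0.0776, Uqcrh -0.0810, Cox6a1 0.0147 and Cox6b2 -0.426. Leaving out 1 library gave Uqcrh -0.149 to 0.112, Ndufa7 -0.394 to 0.0575 and Cox6b2 -0.0622 to 0.799. For log2 ratios it gave Cox7a1/Cox7a2 -0.481 to 0.368, Ndufa4l2/Ndufa4 -0.821 to 0.112, Cox8b/Cox8a -0.389 to 0.374 and Cox6b2/Cox6b1 -0.144 to 0.542. A pseudocount of 5 gave Cox7a1/Cox7a2 0.147 and Ndufa4l2/Ndufa4 0.151, and without H3 and H4 Cox7a1/Cox7a2 was 0.181 and Cox6b2/Cox6b1 -0.460.

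Cox4i2 stayed lower in 18 of 18 alternatives (-2.06 to -0.69) with a limma unadjusted p under 0.05 in 17. Ndufb4 stayed lower in 18 of 18 and Ndufa4l2 in 17 of 17, with such a p in 10 and 8.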

Other observations

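The 8 members above every control in H4, where 76 of 95 were below, were Ndufa10, Ndufc1, Ndufaf1, Ndufaf7, Sdhc, Uqcrfs1, Cox6b1 and Cox6b2. Ndufc1, a small membrane subunit of complex I, was at 82.1, 139, 110 and 131 TPM in controls and at 87.7, 99.7, 91.7 and 192 TPM in H1 to H4. Outside the members, the mitochondrial transcription factor Tfb1m was at 31.4 TPM in H4 and 5.15, 5.98 and 5.64 TPM in H1 to H3. Controls were at 2.79 to 4.43 TPM, so the groups did not overlap (log2 difference 1.08, limma unadjusted p = 0.0639 and adjusted p = 0.790). Tfb2m, another such factor, was at 42.5 TPM in H4, against 15.4 to 22.5 TPM in the other 7 libraries. Among the mitochondrially encoded genes, mt-Co1 was at 27956 TPM in H4, against 5491 to 11945 TPM elsewhere. These genes were chosen after their values were seen.

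Atp5sl, whose symbol recalls the ATP synthase but whose protein (DMAC2) assists the assembly of complex I, was at 13.2 to 22.3 TPM in controls, at 19.4 and 19.0 TPM in H1 and H2 and at 3.70 and 3.86 TPM in H3 and H4. The symbols left out for a -ps or -rs ending reached at most 2.53 TPM in any library.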
